A study of Mus musculus with 72 samples.

Results

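Glutathione S-transferases were followed as messenger RNA in mouse liver, as the 10 genes Gsta1, Gsta2, Gsta3, Gsta4, Gstm1, Gstm2, Gstm3, Gstm4, Gstp1 and Gstt1, taken by symbol from a count table of 55573 genes. The table held 72 liver libraries from male mice labelled C57BL/6 (C57BL/6J background in the study's methods), 1 library per mouse. SPF WT mice carried Bmal1 fl/fl without Cre and lived with a specific pathogen-free gut microbiota, and SPF LKO mice carried Bmal1 fl/fl with Albumin-Cre under the same condition. GF WT and GF LKO mice carried the same 2 genotypes and came from a colony rederived germ-free and kept in isolators. All 4 groups therefore had loxP sites in Bmal1 (listed in the table as Arntl), and only the LKO groups lacked the gene in cells that use the albumin promoter, mainly hepatocytes, so the other cells of a bulk liver sample could still carry it. Per the study's methods the mice were 10 to 14 weeks old when they were moved to individual cages, which was followed by 14 days of acclimatization and a further 3 weeks before dissection. Each group had 3 mice at each of 6 zeitgeber times (ZT, hours since the lights came on), every 4 h from ZT2 to ZT22, which gives 18 libraries per group.

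Glutathione S-transferases join the thiol of the tripeptide glutathione to electrophilic drugs, toxins and lipid peroxidation products, and the conjugates are then exported and trimmed to mercapturates. The soluble enzymes are dimers and fall into classes by sequence, here alpha (Gsta), mu (Gstm), pi (Gstp) and theta (Gstt). Liver is among the tissues richest in them, and their genes are known targets of NRF2, which binds the antioxidant response element, and of the xenobiotic receptors CAR and PXR. BMAL1 pairs with CLOCK or NPAS2 at E-box sequences and drives the daily cycle of clock genes, among them the PAR bZIP factor DBP, which is known to act on genes of drug metabolism in liver.

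Several members are close copies of each other or of neighbouring genes, which bears on how reads could be assigned to them. The first 60 coding bases, in the GRCm38 annotation, are shown for the genes that the results turn on, with capitals at the bases that differ from the first gene of each class.
Gstm1: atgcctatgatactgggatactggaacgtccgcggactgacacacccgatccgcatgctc
Gstm2: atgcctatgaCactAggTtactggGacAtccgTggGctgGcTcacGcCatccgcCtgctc
Gstm3: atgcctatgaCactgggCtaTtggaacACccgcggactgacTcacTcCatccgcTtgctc
Gstm4: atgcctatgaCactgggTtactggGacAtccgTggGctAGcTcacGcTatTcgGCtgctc
Gsta1: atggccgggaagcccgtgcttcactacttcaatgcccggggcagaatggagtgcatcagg
Gsta2: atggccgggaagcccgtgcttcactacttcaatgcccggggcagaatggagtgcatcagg
Gsta3: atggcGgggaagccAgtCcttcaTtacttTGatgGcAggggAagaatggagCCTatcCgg
Gsta4: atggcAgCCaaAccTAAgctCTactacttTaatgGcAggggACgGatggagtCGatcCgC
Gstp1: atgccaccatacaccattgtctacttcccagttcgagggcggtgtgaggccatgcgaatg
Gstp2: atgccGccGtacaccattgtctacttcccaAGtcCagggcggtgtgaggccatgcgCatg
Against Gstm1, 12 of the 60 bases differed in Gstm2, 9 in Gstm3 and 14 in Gstm4. Against Gsta1, 0 differed in Gsta2, 13 in Gsta3 and 19 in Gsta4, and Gstp2, which is not a member, differed from Gstp1 at 6.

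Over the whole coding sequence Gsta1 and Gsta2 were 97.6% identical, Gstm1 and Gstm3 89.4%, Gstm1 and Gstm2 85.9%, Gstm2 and Gstm3 85.0% and Gstm1 and Gstm4 80.5%. Between classes identity was lower, 51.8% between Gsta1 and Gstm1. Reads were 50 bases long and those that aligned to several places were not counted, so a 50-base word that a member shares with another gene could add nothing to its count. Such words made up 90.5% of the distinct words in the transcripts of Gsta1 (shared with Gm3776, Gsta2 and Gm10639), 49.8% in Gsta2, 33.7% in Gstp1 (shared with Gstp2 and Gstp-ps), 28.8% in Gstm3, 18.9% in Gstm1, 5.7% in Gstm2, 0.3% in Gsta3 and 0.0% in Gsta4, Gstm4 and Gstt1. Counts of Gsta1 and Gsta2 in particular are therefore uncertain, as they rest on the part of each transcript that is its own.

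The mu members lie side by side on the minus strand of chromosome 3 (GRCm38), Gstm3 at chr3:107963696-107969283, Gstm2 at chr3:107981702-107986453, Gstm1 at chr3:108012255-108017973 and Gstm4 at chr3:108040408-108044894. Gsta1 (chr9:78230656-78242684, plus strand), Gsta2 (chr9:78331018-78355788, minus strand) and Gsta4 (chr9:78182774-78209349, plus strand) share a stretch of chromosome 9, while Gsta3 stands apart at chr1:21240589-21265661 on the plus strand. Gstp1 is at chr19:4035407-4037985 and Gstt1 at chr10:75783813-75798584, both on the minus strand.

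The 250 bases upstream of a RefSeq start (GRCm38.p6) are printed for the 3 mu genes with the largest genotype differences and for Gsta3, the alpha gene with the highest level, 5′ to 3′ on the strand of the gene, with matches to the motifs searched in capitals. For Gstm1 the more downstream of its 2 listed starts is shown.
Gstm1 (chr3:108017819-108018068): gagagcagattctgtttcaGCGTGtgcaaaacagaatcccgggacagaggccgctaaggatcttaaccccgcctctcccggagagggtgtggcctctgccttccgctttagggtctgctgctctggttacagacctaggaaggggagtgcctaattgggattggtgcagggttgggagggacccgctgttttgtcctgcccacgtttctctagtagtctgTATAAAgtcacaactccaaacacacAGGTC
Gstm2 (chr3:107986421-107986670): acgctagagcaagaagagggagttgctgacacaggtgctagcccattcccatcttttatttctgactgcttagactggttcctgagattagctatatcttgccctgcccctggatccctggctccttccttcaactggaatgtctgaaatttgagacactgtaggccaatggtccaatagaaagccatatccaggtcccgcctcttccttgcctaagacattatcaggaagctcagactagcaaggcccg
Gstm3 (chr3:107969175-107969424): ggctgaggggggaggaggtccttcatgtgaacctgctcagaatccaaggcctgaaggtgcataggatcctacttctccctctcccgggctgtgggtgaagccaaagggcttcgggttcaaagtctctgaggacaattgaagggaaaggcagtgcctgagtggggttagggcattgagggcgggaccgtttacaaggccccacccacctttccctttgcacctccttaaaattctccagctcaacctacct
Gsta3 (chr1:21240335-21240584): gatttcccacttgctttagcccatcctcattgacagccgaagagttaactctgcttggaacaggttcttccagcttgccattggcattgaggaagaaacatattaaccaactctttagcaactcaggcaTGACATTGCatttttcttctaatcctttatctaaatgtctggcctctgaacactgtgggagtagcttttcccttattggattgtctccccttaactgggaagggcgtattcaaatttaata
A window of 250 bases before and 50 after a start was listed for 9 of the 10 members (Gsta4 had none), and 6 motifs were searched in it on both strands. The antioxidant response element core TGACNNNGC was found in 1 of the 9 members, Gsta3, against 12.4% of 32851 listed promoters. The E-box CACGTG was found in 0 of 9 members (7.2% of all promoters) and the D-box TTATGTAA in 0 of 9 (0.9%). The xenobiotic response element core GCGTG was found in 4 of 9, Gsta1, Gsta2, Gstm1 and Gstp1 (32.4%), TATAAA in 2 of 9, Gsta2 and Gstm1 (13.6%), and AGGTCA, a nuclear receptor motif, in 1 of 9, Gstm1 (16.3%), where its last base lies just past the printed stretch. A match describes letters in this window and says nothing of binding, and the absence of a match says nothing of binding elsewhere.

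Depth was even, between 17369927 and 22076113 counted reads per library. The targeted gene and its partner Npas2 set 4 libraries apart from their labels. Npas2, which is high in livers without Bmal1, had a level (CPM, counts per 1000000 counted reads) of 0.22 in replicate 2 of the mice labelled SPF LKO at ZT14 and of 1.81 in replicate 1 of those at ZT18, where the other 2 libraries of each time held 24.2 to 25.4 and 27.6 to 36.6 CPM. For Arntl, replicate 3 of the mice labelled SPF WT at ZT14 held 2.12 CPM beside 15.9 and 19.4 CPM, and replicate 3 of those labelled GF WT at ZT6 held 8.19 CPM beside 1.62 and 2.43 CPM. In both, Npas2 was low (0.21 and 0.11 CPM), as in the other libraries of the same group and time. The clock gene Nr1d1 was at 84.9 CPM in the first, beside 8.62 and 3.09 CPM, and at 9.33 CPM in the second, beside 50.5 and 49.4 CPM. All 72 libraries were kept under their labels, and values without these 4 are given beside some of the results that they touch.

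Compared per kilobase of exon, the 10 members covered a wide range of levels in SPF WT liver. Median levels there were 643.3 CPM per kb for Gstp1, the pi enzyme that is abundant in the liver of male mice, 508.9 for Gsta3, which is known for conjugating the epoxide of aflatoxin in mice, and 502.8 for Gstm1, the main mu enzyme of mouse liver. Gstt1, a theta enzyme that acts on small halogenated compounds, followed at 189.0 CPM per kb and Gsta4, which favours the lipid peroxidation product 4-hydroxynonenal, at 64.7. Gstm4 (30.2), Gstm3 (18.9), Gsta2 (15.2) and Gstm2 (14.4) formed a lower group, and Gsta1 was near the floor at 0.855 CPM per kb. The ranges over libraries of Gstp1, Gsta3 and Gstm1 overlapped, as did those of Gstm3, Gsta2 and Gstm2, so the order within each of these trios is not beyond the spread between mice.

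The order was different in LKO liver. In SPF LKO libraries Gstm1 came first with a median of 1152 CPM per kb, ahead of Gstp1 (605.9) and Gsta3 (291.2), and Gstm3 (191.4) and Gstm2 (110.9) stood in the range of Gstt1 (118.3). GF LKO liver had a like order, with Gstm1 at 873.7 CPM per kb, Gstp1 at 405.4, Gsta3 at 279.7, Gstm2 at 132.9, Gstm3 at 121.2 and Gstt1 at 117.1. In GF WT liver the highest medians were those of Gsta3 (631.6), Gstm1 (449.9) and Gstp1 (408.6).

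**Figure D1:**
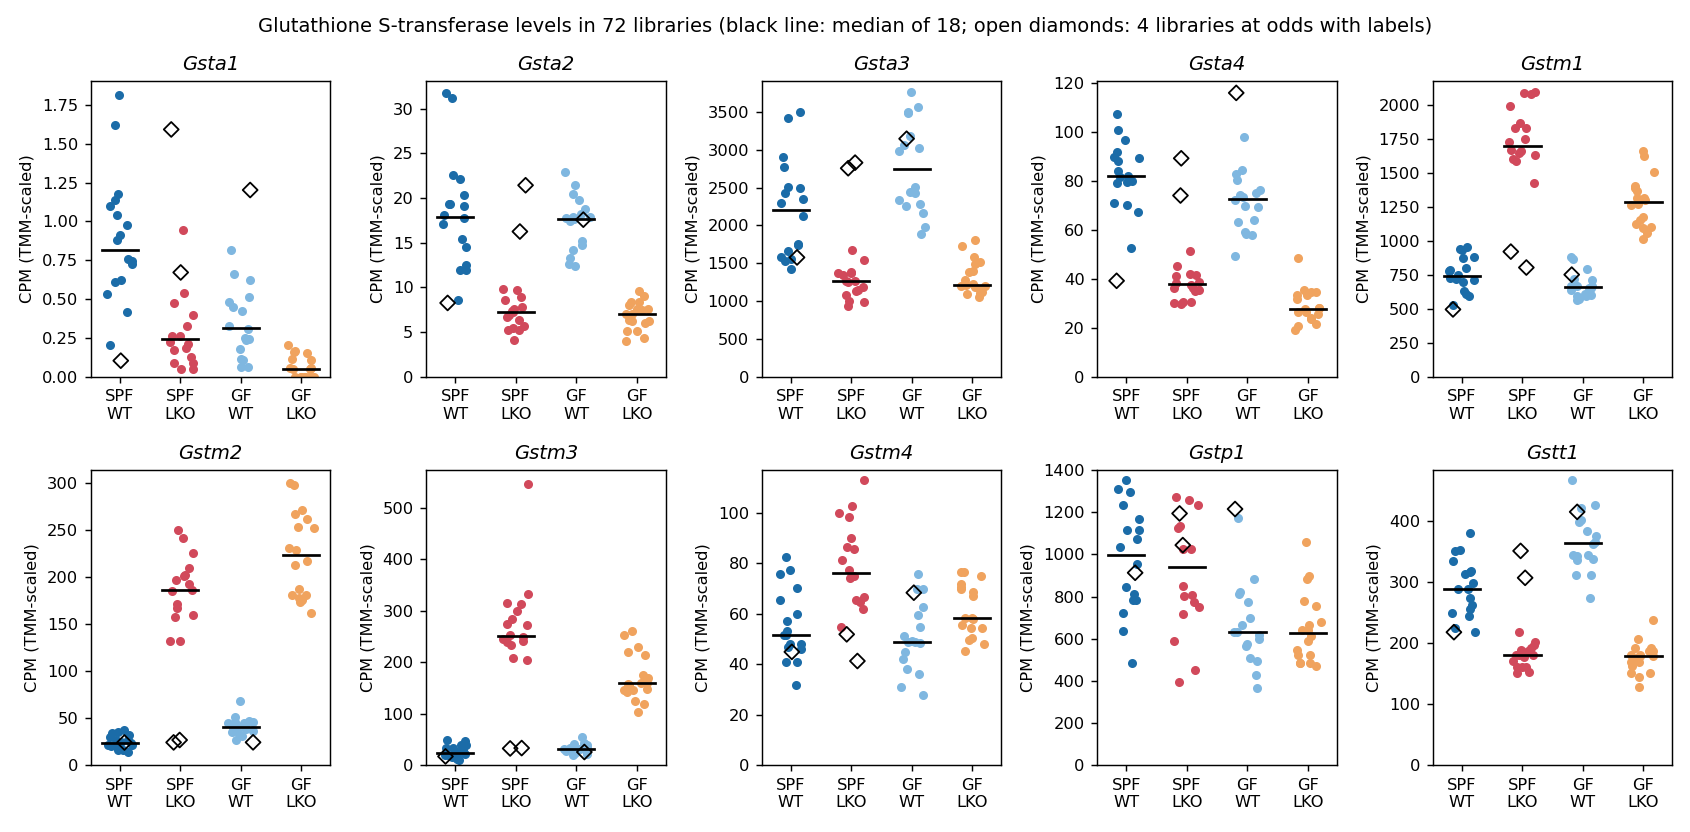
Level of each of the 10 members (vertical axis, CPM scaled by TMM, from 0) in the 18 libraries of each group (horizontal axis), with the median as a black line and the 4 libraries at odds with their labels as open diamonds. Gstm1, Gstm2 and Gstm3 sit higher in LKO than in WT libraries, Gsta2, Gsta3, Gsta4 and Gstt1 sit lower, and both SPF LKO diamonds lie among the WT values of Gstm2, with 24.4 and 27 CPM.

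The comparison between genotypes addressed how the transferases differed between LKO and WT liver in mice with and without gut microbes. Only LKO mice carried Cre, so loss of hepatocyte Bmal1 cannot be told apart from Cre itself. In SPF mice all 10 members could be tested, and 4 were higher and 5 lower in LKO than in WT liver (edgeR's quasi-likelihood test over all genes, Benjamini-Hochberg adjusted p under 0.05), beside 23.1% of all 13159 genes tested (11.6% higher and 11.5% lower). In GF mice 9 could be tested, and 3 were higher and 4 lower, beside 30.8% of 12662 genes (15.6% higher and 15.2% lower). The median log2 change of the members was -0.33 in SPF and -0.08 in GF mice, and that of all genes tested was -0.01 and 0.01. The sign followed the class. All 4 mu genes were higher in SPF LKO liver, while Gsta2, Gsta3, Gsta4 and the theta gene were lower. Gsta1 was also called lower there, but its median was 0.82 CPM in SPF WT and 0.24 CPM in SPF LKO libraries. Its call rests on few reads and adds no support.

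Gstm3 had the largest difference. Its level ran from 9.82 to 49.4 CPM in the 18 SPF WT libraries, with a median of 24.7, and from 32.9 to 546.7 CPM in the 18 SPF LKO libraries, with a median of 250.9. The log2 difference was 3.24 ± 0.25 (SE, adjusted p = 4.97e-12), a 9.47-fold rise, the 16th highest of the 13159 changes tested. The lowest SPF LKO values, 33.7 and 32.9 CPM, belonged to the 2 libraries at odds, at ZT14 and ZT18, and without the 4 libraries at odds the groups did not overlap and the difference was 3.36. In GF mice Gstm3 ran from 21.2 to 55.4 CPM in WT libraries (median 32.1) and from 104.2 to 259.8 CPM in LKO libraries (median 158.9), a rise of 2.40 ± 0.12 (SE, adjusted p = 1.65e-18) with no overlap between the groups.

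Gstm2 followed closely. SPF WT libraries held 14.2 to 37.9 CPM (median 24.2) and SPF LKO libraries 24.4 to 249.4 CPM (median 186.1). The log2 difference was 2.76 ± 0.21 (SE, adjusted p = 1.60e-12), a 6.79-fold rise, and the 2 SPF LKO libraries among the WT values were again those at odds, at 24.4 and 27 CPM. In GF mice the ranges were 24.5 to 68.6 CPM (median 40.5) and 161.4 to 299.6 CPM (median 223.2), a rise of 2.45 ± 0.11 (SE, adjusted p = 6.72e-21) without overlap. As in the coding starts printed above, Gstm2 and Gstm3 differ from each other and from Gstm1 at scattered bases, and 28.8% of the 50-base words of Gstm3 could not be counted.

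Gstm1 changed less on the log2 scale but from a far higher level. It ran from 495.5 to 954.7 CPM in SPF WT libraries (median 740.6) and from 803.9 to 2097 CPM in SPF LKO libraries (median 1698), a difference of 1.17 ± 0.10 (SE, adjusted p = 5.45e-11). Its 2 lowest SPF LKO values, 803.9 and 921 CPM, were those of the libraries at odds. GF WT libraries held 565.7 to 883.3 CPM (median 662.8) and GF LKO libraries 1012 to 1665 CPM (median 1287), a rise of 0.93 ± 0.07 (SE, adjusted p = 4.07e-14) without overlap. Gstm4, the mu gene farthest along the cluster, had medians of 51.6 CPM in SPF WT and 76.1 CPM in SPF LKO libraries, and its difference of 0.49 ± 0.12 (SE, adjusted p = 0.00208) came with overlapping ranges of 31.8 to 82.4 and 41.3 to 112.7 CPM and did not pass without replicate 1 (0.39, adjusted p = 0.0887). In GF mice Gstm4 did not pass the test (0.27 ± 0.11, SE, adjusted p = 0.0571, medians 49 and 58.4 CPM), but it did without the GF WT library at odds (0.29, adjusted p = 0.0357) and with ZT as a covariate (0.30, adjusted p = 0.000576).

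Among the alpha genes, Gsta3 was by far the most abundant. It ran from 1419 to 3493 CPM in SPF WT libraries (median 2210) and from 930.3 to 2830 CPM in SPF LKO libraries (median 1265), a fall of -0.63 ± 0.14 (SE, adjusted p = 0.00104). Its highest SPF LKO values, 2830 and 2756 CPM, were those of the 2 libraries at odds, and the difference was -0.85 without the 4. In GF mice WT libraries held 1883 to 3767 CPM (median 2744) and LKO libraries 1049 to 1810 CPM (median 1215), a fall of -1.07 ± 0.09 (SE, adjusted p = 2.49e-12) without overlap.

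Gsta4 had 39.2 to 107.5 CPM in SPF WT libraries (median 81.9) and 29.8 to 89.3 CPM in SPF LKO libraries (median 37.8). The fall was -0.93 ± 0.13 (SE, adjusted p = 7.85e-07), or -1.15 without the 4 libraries at odds, where the groups did not overlap. The SPF WT library at odds held the lowest WT value, 39.2 CPM, and the SPF LKO library at odds at ZT18 the highest LKO value, 89.3 CPM. In GF mice the ranges were 49.5 to 116.1 CPM (median 72.8) and 19.1 to 48.5 CPM (median 27.9), a fall of -1.33 ± 0.10 (SE, adjusted p = 1.81e-13) without overlap.

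Gsta2 and Gsta1 were scarcer. Gsta2 ran from 8.26 to 31.7 CPM in SPF WT libraries (median 17.9) and from 4.08 to 21.4 CPM in SPF LKO libraries (median 7.27), a fall of -1.10 ± 0.18 (SE, adjusted p = 2.08e-05). Without the 4 libraries at odds the highest SPF LKO value was 9.78 CPM and the lowest SPF WT value 8.55 CPM, so the ranges still overlapped. GF WT libraries held 12.4 to 23 CPM (median 17.7) and GF LKO libraries 3.97 to 9.62 CPM (median 6.98), a fall of -1.32 ± 0.10 (SE, adjusted p = 7.46e-14) without overlap. Gsta1 was counted in few reads, 2 to 33 per SPF WT library, 1 to 29 per SPF LKO library, 1 to 21 per GF WT library and 0 to 4 per GF LKO library. It was lower in SPF LKO liver by -1.21 ± 0.33 (SE, adjusted p = 0.00608), a call that was lost without replicate 1 (-1.04, adjusted p = 0.128) and without replicate 3 (-0.94, adjusted p = 0.0688), and in GF mice it was too low to be tested.

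Gstt1, the theta gene, ran from 217.8 to 379.3 CPM in SPF WT libraries (median 288.8) and from 150.5 to 350.7 CPM in SPF LKO libraries (median 180.7), a fall of -0.56 ± 0.10 (SE, adjusted p = 2.93e-05). The 2 SPF LKO libraries at odds held 306.7 and 350.7 CPM, its highest values there, and without the 4 the fall was -0.71 and the groups did not overlap. GF WT libraries held 274.1 to 466.5 CPM (median 363.1) and GF LKO libraries 128.8 to 237.0 CPM (median 178.9), a fall of -1.05 ± 0.07 (SE, adjusted p = 3.66e-16) without overlap. Gstp1, by contrast, was the member with no genotype call in either condition. Its medians were 995.9 CPM in SPF WT and 938.0 CPM in SPF LKO libraries, within ranges of 487.5 to 1352 and 395.7 to 1272 CPM, and the difference of -0.10 (adjusted p = 0.647) had a 95% interval of -0.37 to 0.17. In GF mice it was -0.08 (adjusted p = 0.683) with an interval of -0.34 to 0.17.

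Counted over all libraries, 3 members lay wholly above the WT range in GF LKO liver (Gstm1, Gstm2 and Gstm3), beside 0.782% of all genes tested, and 4 lay wholly below it (Gsta2, Gsta3, Gsta4 and Gstt1), beside 0.845%. In SPF mice 0 members were free of overlap in either direction, beside 0.0076% and 0.0% of genes. Without the 4 libraries at odds, 3 members in SPF mice lay wholly above (Gstm1, Gstm2 and Gstm3, beside 0.897% of genes) and 2 wholly below (Gsta4 and Gstt1, beside 0.692%).

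**Figure D2:**
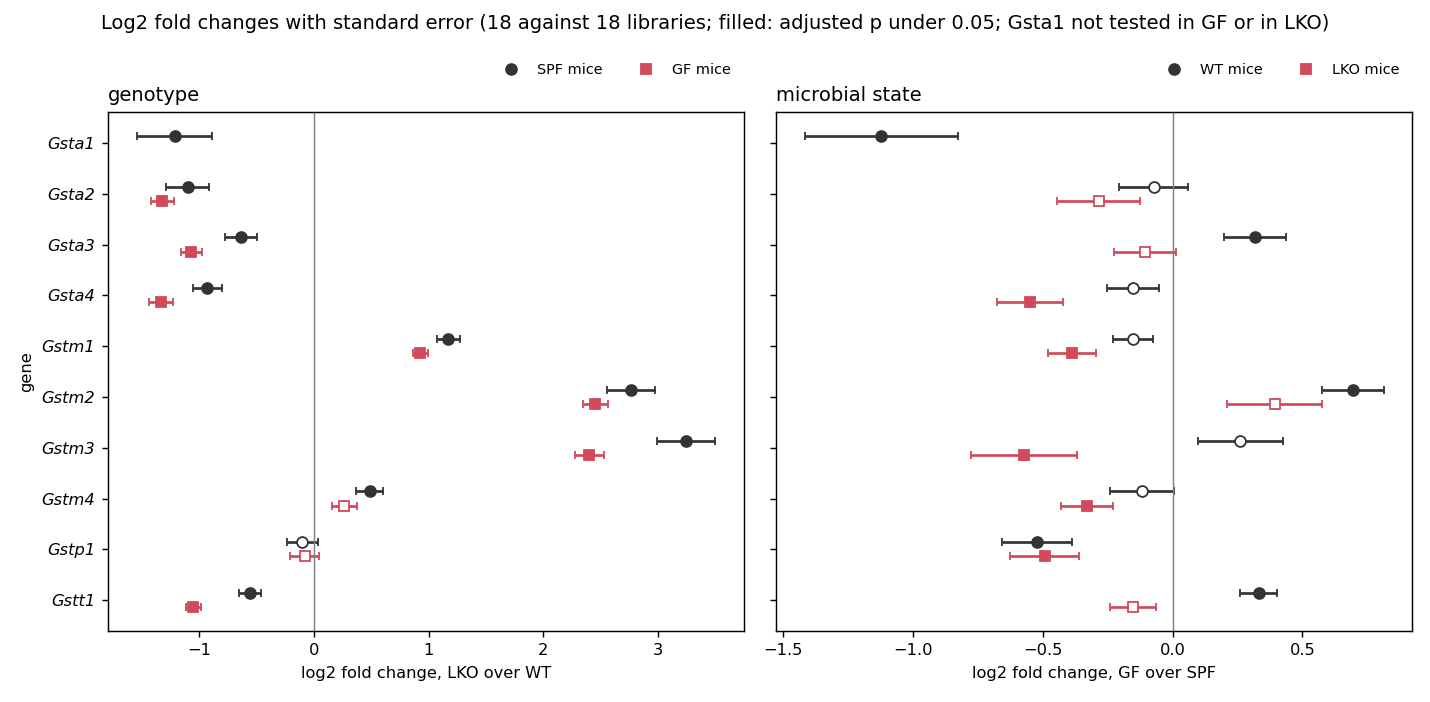
Log2 fold change of each member with its standard error, LKO over WT at left (SPF mice as circles, GF mice as squares) and GF over SPF at right (WT mice as circles, LKO mice as squares), filled where the adjusted p was under 0.05. The mu genes lie to the right of 0 and the alpha and theta genes to the left in the genotype panel, from 3.24 for Gstm3 to -1.33 for Gsta4, while the microbial differences stay between -1.12 and 0.69.

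The members of the mu class sit in a row of 7 mu genes on chromosome 3, and the size of the genotype difference was graded along it. From Gstm5 (chr3:107895821-107898686) through Gstm7 and Gstm6 to Gstm3, Gstm2, Gstm1 and Gstm4, the log2 differences in SPF mice were 0.27, 0.94, 1.68, 3.24, 2.76, 1.17 and 0.49. In GF mice the same genes in the same order gave 0.53, 0.87, 1.5, 2.40, 2.45, 0.93 and 0.27. All but Gstm4 in GF mice passed the test, and in both conditions the values were largest at the adjacent pair Gstm3 and Gstm2 and smaller on both sides of it. The share of 50-base words also found in other genes was uneven along the row. It was 9.4% in Gstm5, 0.5% in Gstm7, 6.0% in Gstm6, 28.8% in Gstm3, 5.7% in Gstm2, 18.9% in Gstm1 and 0.0% in Gstm4. The shared words of Gstm5 were found in 4933431E20Rik, which is not a gene of this row. The part of misassigned reads in these values was not tested.

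Summed per kilobase, the mu class took a larger share of the 10 members in LKO than in WT liver and the alpha class a smaller one, values that are given as a description. The 4 mu genes made up a median of 27.4% of the sum over the 10 members in SPF WT libraries (range 21.5% to 40.2%) and 59% in SPF LKO libraries (26.4% to 68.1%, or 55.1% to 68.1% without the libraries at odds). In GF mice their share was 27.8% in WT (22.9% to 37.1%) and 57% in LKO libraries (52.1% to 63.2%), with no overlap. The alpha share was 28.6% and 12.5% in SPF WT and SPF LKO libraries and 35.4% and 15.6% in GF WT and GF LKO libraries. The sum itself had medians of 1971 and 2525 CPM per kb in SPF WT and SPF LKO libraries and of 1961 and 1964 CPM per kb in GF WT and GF LKO libraries, with overlapping ranges. These sums are relative to all counted reads, and in bulk liver fewer cells of a type cannot be told apart from less RNA per cell.

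**Figure D3:**
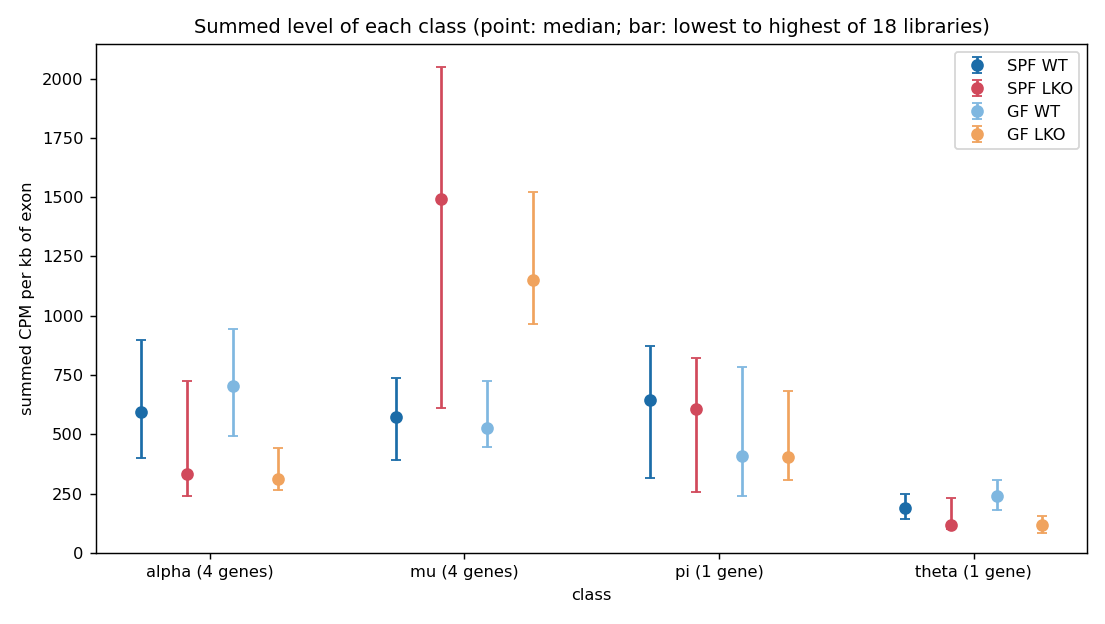
Summed level of the members of each class (vertical axis, CPM per kb of exon, from 0) in each group, with the median of 18 libraries as a point and the lowest and highest library as a bar. The mu class has medians of 571.0 (WT) and 1493 (LKO) in SPF and of 524.5 and 1149 in GF mice, the alpha class 592.0 and 331.8 and then 703.7 and 309.4, and the pi class 643.3 and 605.9 and then 408.6 and 405.4.

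The same comparison within each ZT had 3 mice a group. In GF mice, Gstm2, Gstm3, Gsta4 and Gstt1 were called at all 6 ZT, Gstm1 at 5, Gsta3 at 5 and Gsta2 at 4, Gsta1 was called at 2 of the 4 ZT at which it could be tested, and Gstm4 and Gstp1 were called at 0. Together 40 pairs of member and ZT were called, between 5 and 8 members at each ZT, beside 4.21%, 11.7%, 13.1%, 6.1%, 8.43% and 4.44% of genes in order of time. The 2 calls of Gsta1 are among these 40. Within a ZT the filter on low counts ran over all 4 groups, so Gsta1 entered there although it failed in GF mice alone. Its 2 calls rest on 0 to 4 reads per GF LKO library and add no support. In SPF mice 27 pairs were called, at ZT2 (5 members, beside 6.89% of genes), ZT6 (7, beside 7.26%), ZT10 (8, beside 11.9%) and ZT22 (7, beside 3.31%), and 0 members were called at ZT14 and ZT18, beside 0.0% and 0.015% of genes. At an unadjusted p under 0.05 in the same edgeR test there were 4 members at ZT14, the 4 mu genes, beside 11.1% of genes, and 8 at ZT18, beside 10.6%. Data were simulated from the libraries of ZT2, with changes placed in GF LKO mice. There 0 of 100 genes changed by a log2 of 0.5 and 28 of 100 changed by a log2 of 1 were recovered. The simulated spread also held the differences between the 4 groups, and the SPF comparisons at ZT14 and ZT18 were not simulated. These shares therefore do not measure what could be recovered there.

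At ZT14 the 3 SPF LKO libraries held 239.1, 33.7 and 208.0 CPM of Gstm3, against 12.5, 17.2 and 17.5 CPM in SPF WT. At ZT18 they held 32.9, 331.7 and 252.4 CPM, against 39.9, 24.3 and 32.9 CPM. At each time the low LKO value was that of the library at odds. Gsta4 showed the mirror image at ZT18, with 89.3, 38.2 and 36.1 CPM in SPF LKO against 89.9, 88.1 and 100.8 CPM in SPF WT. Without the 4 libraries at odds, 8 members were called at ZT14, beside 5.51% of genes, and 8 at ZT18, beside 4.63%, with log2 differences of 3.91 and 3.19 for Gstm3, 3.36 and 2.71 for Gstm2, 1.20 and 1.34 for Gstm1, -1.14 and -1.13 for Gsta3, -1.0 and -1.31 for Gsta4 and -0.84 and -0.81 for Gstt1. These fits held fewer than 3 SPF LKO libraries at both times and fewer than 3 SPF WT libraries at ZT14.

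The comparison between microbial states addressed how GF liver differed from SPF liver within a genotype. GF mice came from a separate colony kept in isolators, so absent gut microbes cannot be told apart from colony and housing. This comparison shares its libraries with the genotype comparison, so the values are given side by side and not as a separate line of evidence. In WT mice 3 members were higher and 2 lower in GF than in SPF liver, beside 31.8% of 12776 genes tested (14.2% higher and 17.7% lower). In LKO mice 0 of 9 members tested were higher and 5 lower, beside 36.4% of 13010 genes (18.1% higher and 18.4% lower). The median log2 change of the members was -0.10 in WT and -0.33 in LKO mice, against -0.02 for all genes in both.

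In WT mice Gstm2 rose in GF liver, from a median of 24.2 to 40.5 CPM, by 0.69 ± 0.12 on the log2 scale (SE, adjusted p = 3.37e-05), and its mean was higher at all 6 ZT. Gstt1 rose from 288.8 to 363.1 CPM, by 0.33 ± 0.07 (SE, adjusted p = 0.000590), at 5 of 6 ZT. Gsta3 rose from 2210 to 2744 CPM, by 0.32 ± 0.12 (SE, adjusted p = 0.0372), a call that was lost without the SPF WT library at odds (0.30, adjusted p = 0.0526) and without replicate 2 (0.32, 0.136) or replicate 3 (0.25, 0.235). Gstp1 fell in GF WT liver from 995.9 to 632.5 CPM, by -0.52 ± 0.13 (SE, adjusted p = 0.00296), or by -0.46 with an adjusted p = 0.0704 without replicate 2. Gsta1 fell by -1.12 (adjusted p = 0.00363) on its own few reads, which add no support, and did not pass without replicate 1 (-0.93, adjusted p = 0.0664). The ranges of GF and SPF libraries overlapped for each of these genes.

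In LKO mice 3 of the 4 mu members were lower in GF liver. The mu genes of the same row that are not members went the other way. Gstm5, Gstm7 and Gstm6 were called higher in GF LKO liver, by 0.37, 0.57 and 0.42. Gstm3 fell from a median of 250.9 to 158.9 CPM, by -0.57 ± 0.20 (SE, adjusted p = 0.0261), a call lost without replicate 2 (-0.45, adjusted p = 0.127) or replicate 3 (-0.54, adjusted p = 0.180). Gstm1 fell from 1698 to 1287 CPM, by -0.39 ± 0.09 (SE, adjusted p = 0.00119), and Gstm4 from 76.1 to 58.4 CPM, by -0.33 ± 0.10 (SE, adjusted p = 0.00978), the latter not passing without replicate 1 (-0.28, adjusted p = 0.0830). Gstm2, which had risen in GF WT liver, was at medians of 186.1 and 223.2 CPM (0.39, adjusted p = 0.0885), and without the 4 libraries at odds it passed in the upward direction (0.25, adjusted p = 0.0327). Gsta4 fell from 37.8 to 27.9 CPM, by -0.55 ± 0.13 (SE, adjusted p = 0.00103), and Gstp1 from 938.0 to 627.6 CPM, by -0.49 ± 0.13 (SE, adjusted p = 0.00375, or 0.185 without replicate 2).

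Gstp1 was lower in GF liver of WT and of LKO mice (-0.52 and -0.49), and both values passed the test. By ZT, 7 pairs of member and time were called in WT mice. Of these, 4 were at ZT2, all higher in GF liver, namely Gstm2 (1.30), Gstm3 (1.01), Gsta3 (0.90) and Gstt1 (0.60), beside 10.1% of genes tested at that time. The others were Gsta3 at ZT6 (0.70, beside 2.62%), Gstm2 at ZT10 (1.03, beside 2.89%) and Gstp1 at ZT22 (-1.08, beside 0.516%), with 0 members at ZT14 and ZT18, beside 0.0751% and 0.983%. In LKO mice 3 pairs were called, Gstm1 at ZT10 (-0.58, beside 0.982%) and Gstm3 (-1.21) and Gstm1 (-0.70) at ZT22 (beside 2.25%), with 0 members at ZT2, ZT6, ZT14 and ZT18, beside 8.92%, 0.309%, 0.0601% and 3.71% of genes.

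Whether the genotype difference itself differed between GF and SPF mice was tested as the difference between the GF and SPF effects over all 72 libraries. It passed for 1 of the 10 members, Gstt1, beside 0.438% of 13484 genes. The genotype effect on Gstt1 was more negative in GF mice by -0.50 ± 0.12 (SE, adjusted p = 0.0199), but the adjusted p was 0.123 (difference -0.34) without the 4 libraries at odds and 0.144 to 0.370 without any 1 replicate number. Gstm3 had the largest difference among the mu genes, -0.85 ± 0.27 (SE, adjusted p = 0.218), that is a smaller rise in GF than in SPF mice, and passed without the 4 libraries (-0.99, adjusted p = 0.00769). For the other 8 members the adjusted p ran from 0.475 to 1.0.

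Over the day, a 24 h harmonic was fitted in each group. In SPF WT liver 2 members passed, beside 15% of genes, and in GF WT liver 3, beside 26.7%. Gsta3 swung by a fitted 1.84-fold from trough to peak in SPF WT liver, with a peak at ZT17.8 (adjusted p = 0.00838), and by 1.65-fold in GF WT liver with a peak at ZT22.1 (adjusted p = 0.000480). Its means in SPF WT mice were 1615 ± 121 CPM at ZT2, 1583 ± 161 at ZT6 and 3030 ± 347 at ZT18 (SD, n = 3). Gstm4 peaked in the early light phase, at ZT3.7 in SPF WT (1.66-fold, adjusted p = 0.0149) and ZT3.1 in GF WT liver (1.99-fold, adjusted p = 4.24e-05), with the lowest means at ZT14, 39.2 ± 6.7 and 31.6 ± 4.2 CPM. Gstt1 passed in GF WT liver, with a peak at ZT22.6 (adjusted p = 0.0259). The calls of Gsta3 and Gstm4 in SPF WT mice were lost without replicate 1 (adjusted p = 0.0619 and 0.115) or replicate 2 (0.214 and 0.218), and that of Gstt1 without any 1 replicate number (0.0527 to 0.169).

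In SPF LKO liver 0 members passed for a rhythm, beside 21.2% of genes, with 2 libraries at odds among the 18. At an unadjusted p under 0.05 there were Gsta3, Gstm4, Gsta4 and Gstp1, beside 37.4% of genes, with adjusted p = 0.112, 0.126, 0.128 and 0.0778 in edgeR's test. Without the filter on low counts Gsta3 (adjusted p = 0.0403) and Gstp1 (adjusted p = 0.0215) passed. In GF LKO liver Gsta3 (peak at ZT1.6, 1.41-fold, adjusted p = 0.00563), Gstm4 (ZT5.5, 1.43-fold, adjusted p = 0.00321) and Gstm3 (ZT1.0, 1.5-fold, adjusted p = 0.0465) passed, beside 35% of genes. These calls were lost without replicate 3 (adjusted p = 0.0627, 0.0977 and 0.324), and that of Gstm3 also without replicate 2 (0.136) and with limma (0.0534). Rhythms differed between genotypes in GF mice for Gsta3 (adjusted p = 0.0490) and Gstm4 (adjusted p = 0.0468), beside 5.81% of genes, and in SPF mice for 0 of 10 members, beside 1.02% of genes, with 0 members at an unadjusted p under 0.05, beside 12.9%. In GF mice the call of Gsta3 was lost with RLE size factors (adjusted p = 0.0575) and without replicate 1 or 2 (0.506 and 0.302), and that of Gstm4 with the replicate block (0.0596), without the 4 libraries at odds (0.0510) and without any 1 replicate number (0.150 to 0.306). Gstm2 and Gstm1 passed in 0 of the 4 groups.

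**Figure D4:**
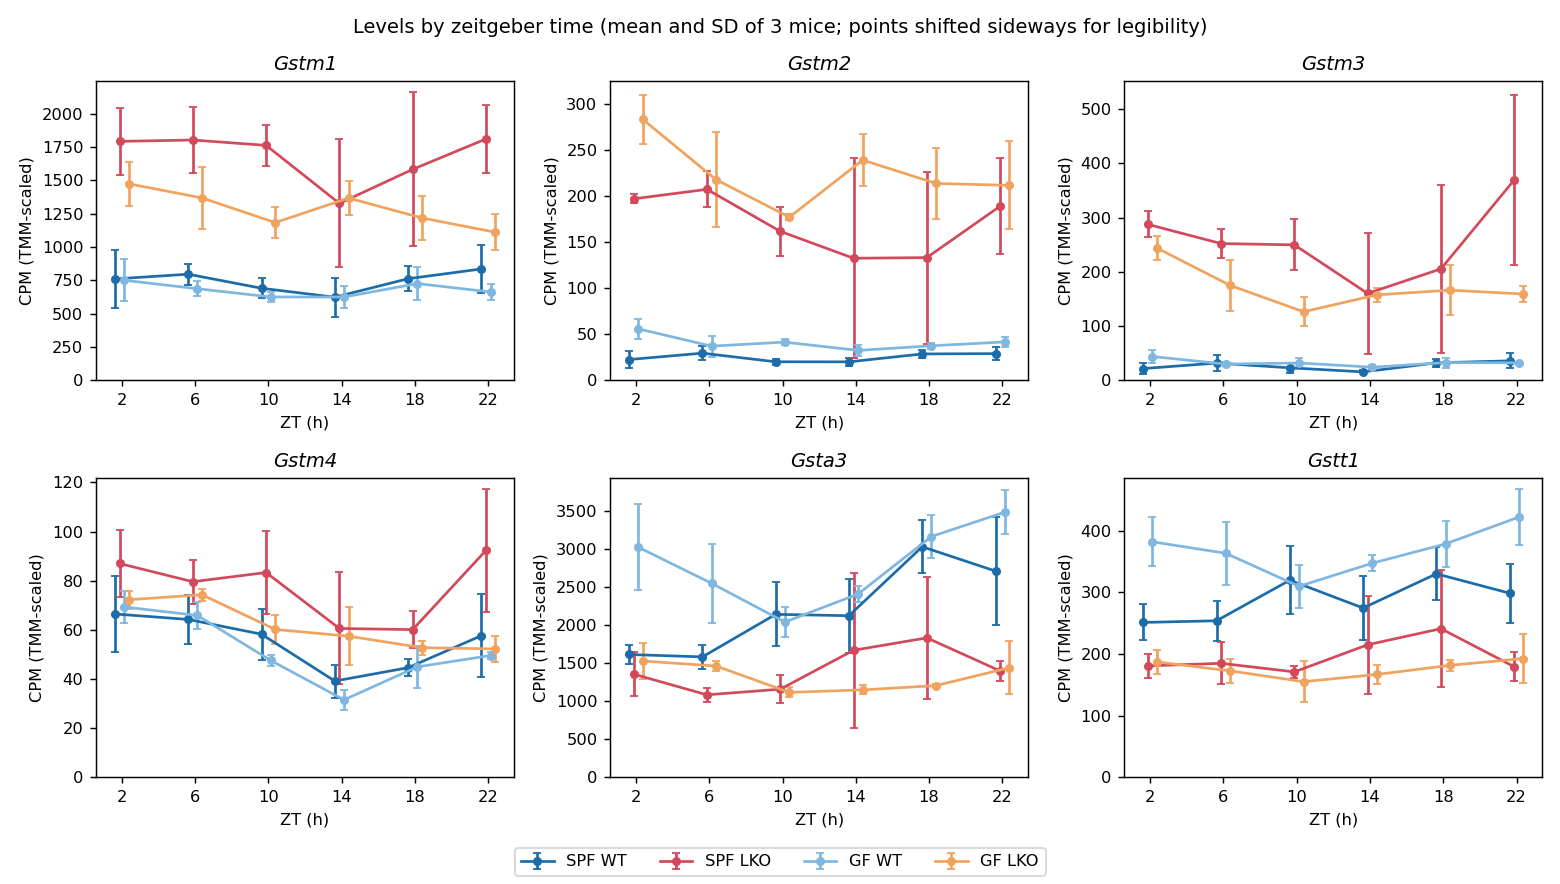
Mean and SD of 3 mice (vertical axis, CPM scaled by TMM, from 0) at each ZT (horizontal axis, hours) for 6 members in the 4 groups. Gstm1, Gstm2 and Gstm3 have a higher mean in LKO than in WT mice of the same microbial state at each ZT, with wide bars in SPF LKO mice at ZT14 and ZT18, and Gstm4 in WT mice is lowest at ZT14, at 39.2 and 31.6 CPM.

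Among the other glutathione transferase genes, 15 of 22 listed could be tested. Between genotypes 4 were higher and 3 lower in SPF mice and 5 higher and 3 lower in GF mice, with medians of -0.05 and 0.03. Of all genes tested, 23.1% were called in SPF and 30.8% in GF mice. Neither this list nor those below were tested as sets. Gstm6, a mu gene beside Gstm3, rose in LKO liver by 1.68 and 1.5 in SPF and GF mice, and Gstp3, another pi gene, rose by 1.1 in both. Gstt2, the theta gene related to Gstt1, fell by 1.53 and 2.28, from a median of 69.5 to 17.6 CPM in SPF mice, and Mgst3, a membrane-bound relative, fell by 1.02 and 1.64. Between microbial states 6 of the 15 were higher and 3 lower in GF liver in each genotype, beside 31.8% of all genes called in WT and 36.4% in LKO mice. Gstp3 rose in WT and LKO mice by 0.48 and 0.47, in contrast to Gstp1. Gstp2 and Gstp-ps, which share sequence with Gstp1, were lower in GF liver as Gstp1 was. Their log2 differences in WT and LKO mice were -1.23 and -0.86 for Gstp2 and -0.43 and -0.38 for Gstp-ps.

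Of 11 genes tested that supply or recycle glutathione, 1 was higher and 3 were lower in SPF LKO liver and 1 was higher and 4 were lower in GF LKO liver. The share of all genes called was 23.1% in SPF and 30.8% in GF mice. Ggct, which breaks down gamma-glutamyl peptides, rose by 0.72 and 0.81 in SPF and GF mice, while Glrx (glutaredoxin) fell by 0.36 and 0.55, Oplah (5-oxoprolinase) by 0.39 and 0.55 and Gpx1 (glutathione peroxidase) by 0.29 and 0.36. Of NRF2 and its targets, 1 of 12 was higher and 2 lower in SPF mice, and 1 of 11 higher and 3 lower in GF mice. These counts lie near the same shares of all genes, 23.1% and 30.8%. Maff, a small MAF partner of NRF2, had log2 differences of -1.73 and -1.89, and Nfe2l2, which encodes NRF2, had log2 differences of -0.01 (adjusted p = 0.919) and 0.02 (adjusted p = 0.878).

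Of the xenobiotic receptors and their targets, 2 of 13 were higher and 3 lower in SPF LKO liver, and 2 of 14 higher and 6 lower in GF LKO liver. For each list named here the share of all genes called was 23.1% in SPF and 30.8% in GF mice. Cyp2c55 rose by 3.76 and 3.37 in SPF and GF mice and Cyp2b10, a classical CAR target, by 1.56 and 1.57, while Por, the electron donor of the P450 enzymes, fell by 1.04 and 1.93. Cyp3a11, a PXR target, had medians of 5206 CPM in SPF WT and 6055 CPM in SPF LKO liver (0.22, adjusted p = 0.369) and fell in GF LKO liver by 2.38, from 626.1 to 172.4 CPM (adjusted p = 7.15e-09). Of the genes for conjugate export and mercapturate formation, 0 of 9 were higher and 4 lower in SPF LKO liver, and 1 was higher and 4 lower in GF LKO liver. Nat8, the N-acetyltransferase of mercapturate synthesis, fell by 2.57 in SPF and by 5.64 in GF mice, from 26.4 to 0.546 CPM. Of 4 genes, the PAR bZIP factors Dbp, Tef and Hlf together with Nfil3, 1 was lower in SPF mice and 2 were lower in GF mice. Dbp had log2 differences of -2.29 and -2.78. Of 15 clock genes 4 were higher and 5 lower in SPF mice, and of 14 in GF mice 5 were higher and 4 lower.

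Between GF and SPF liver the same lists gave, in WT and then LKO mice, 3 higher and 0 lower and 2 higher and 3 lower for glutathione supply, 0 higher and 4 lower and 1 higher and 5 lower for NRF2 and its targets, and 3 higher and 4 lower and 1 higher and 6 lower for the xenobiotic receptors and their targets. For conjugate export they gave 2 higher and 2 lower and 1 higher and 4 lower, for the PAR bZIP factors with Nfil3 0 called and 1 lower, and for clock genes 0 called and 1 higher and 3 lower. Of all genes tested, 31.8% were called in WT and 36.4% in LKO mice. The difference between the GF and SPF genotype effects passed for 2 xenobiotic genes and 1 export gene, all lower, and for 0 genes of the other lists, beside 0.438% of all genes.

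Markers of the cell types in liver moved in part with the groups. The summed hepatocyte markers, led by Alb, had medians of 103500 CPM in SPF WT (78410 to 128500), 55900 in SPF LKO (41310 to 122900), 131500 in GF WT (110000 to 167700) and 58190 in GF LKO libraries (49030 to 70420), and 1 of the 6 markers was called lower between genotypes in SPF mice and 2 in GF mice. Pericentral hepatocyte markers, where transferases are known to be rich, summed to medians of 9580, 9580, 11650 and 10030 CPM in the same order of groups. Cholangiocyte markers had medians of 54.2, 70.7, 44.2 and 90.8 CPM and Kupffer cell markers 248.3, 211.4, 222.6 and 185.8 CPM. Of 5 cholangiocyte markers tested, 1 was called higher in SPF LKO liver (Sox9) and 2 in GF LKO liver (Sox9 and Spp1). Of 6 Kupffer cell markers, 4 were lower in SPF LKO and 2 in GF LKO liver. Of all genes tested between genotypes, 23.1% were called in SPF mice (11.5% lower) and 30.8% in GF mice (15.2% lower). Periportal markers had medians of 4403, 3470, 5260 and 4076 CPM, endothelial markers 185.6, 182.4, 184.4 and 185.2, stellate cell markers 332.4, 345.0, 313.7 and 353.9, lymphocyte markers 14.1, 11.1, 9.30 and 8.03 and red blood cell markers 275.9, 213.7, 285.7 and 221.0 CPM. Markers of intestine or pancreas summed to 127.7, 169.0, 166.3 and 192.5 CPM, with Lct, Prss1 and Cpa1 at a median of 0. Of these markers 2 could be tested. Cela1 was called higher in LKO liver (1.27 in SPF and 1.13 in GF mice) and in GF liver (0.58 in WT and 0.45 in LKO mice). Fabp2 was called only between genotypes in GF mice, where it was lower in LKO liver (-0.40). The part of cell makeup in the differences of the transferases was not tested.

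The genes with patterns most like each member were sought among 10710 genes by Pearson's r of log2 CPM over the 24 means of group and ZT, a description of points that share libraries. Most like Gstm2 was Gstm6 of the same row (r = 0.992), followed by Lpl (0.984), and most like Gstm3 were Cyp2c55 (0.984) and Gstm1 (0.967). For Gstm1 they were Gstm2-ps1 and Cyp2c55 (r = 0.968). Gsta4 lay nearest to Nat8 and Aldh3a2 (r = 0.968), Gsta2 to Ces1b (0.957) and Hsd11b1 (0.954), Gsta3 to Gm4956 (0.959) and Khk (0.954) and Gstt1 to Suclg2 (0.961) and Alb (0.958). Gstp1 followed Gstp-ps (0.951), with which it shares sequence, and then Stk38 at 0.799, while Gstm4 had 9130409I23Rik (0.925) and Lonp2 (0.847). Gsta1, which rests on few reads, had Smim1 (0.900) and Blvrb (0.877).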

How the data were processed

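Livers of 72 mice were profiled by mRNA sequencing with a stranded kit and single-end reads of 50 bases. Per the study's methods, the authors aligned reads with STAR 2.6.1b to mm10 and counted them with featureCounts 2.0.0. The command in the header of the deposited counts names Ensembl release 97 and sets no option for strand, multiple alignments or overlaps, which by that tool's defaults ignores strand and leaves out any read with more than 1 alignment or gene. Groups came from the deposited labels. The members and lists were chosen with earlier results of these data known. Counts were scaled by TMM and tested with edgeR 4.0.16 (R 4.3.3) by the quasi-likelihood test after filterByExpr, with Benjamini-Hochberg adjustment over all genes tested and a threshold of 0.05. Groups were compared over 18 libraries each and within each ZT over 3, the genotype effects of GF and SPF mice over all 72 libraries, and rhythms as a 24 h harmonic. P-values within a ZT measure the spread between the mice labelled as replicates. The comparisons over all ZT had no term for ZT, so their spread also holds the differences between times. Levels are CPM, or CPM per kb of exon. Named genes were the 10 members, called genes of the lists and the genes most like each member. DESeq2 1.42.0, limma 3.58.1, other scalings, no filter, ZT as a covariate, the replicate number as a block and left-out libraries were alternatives, and leaving out single libraries at odds was added after seeing the data. The scripts were tested on simulated data.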

Additional observations from a re-analysis of the deposited data

Results flagged for a closer look

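The genotype effect on Gstt1 differed between GF and SPF mice by -0.50 on the log2 scale in a test of that difference over all 72 libraries (edgeR, adjusted p = 0.0199), with falls of -1.05 in GF and -0.56 in SPF mice. It did not pass without the 4 libraries at odds (-0.34, adjusted p = 0.123) or without any 1 replicate number (adjusted p = 0.144 to 0.370).

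The 24 h rhythm differed between GF WT and GF LKO mice for Gsta3 (edgeR, adjusted p = 0.0490) and for Gstm4 (edgeR, adjusted p = 0.0468), in a test of the difference between the fitted harmonics. With RLE size factors Gsta3 did not pass, with the replicate block or without the 4 libraries at odds Gstm4 did not pass, and without 1 replicate number 0 or 1 of them passed.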

How the results depend on the processing

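Calls within a ZT moved most. In SPF mice the 27 pairs of member and ZT called between genotypes became 44 without the filter on low counts and 43 without the 4 libraries at odds. The 7 microbial pairs in WT mice became 14 without the filter, and the 3 in LKO mice became 21 without it, 11 with DESeq2 and 0 with the replicate block. Without the filter, rhythms were called for 2 members in SPF LKO and 5 in GF WT mice, in place of 0 and 3. The 2 rhythm differences in GF mice became 1 with size factors (RLE), 1 with the replicate block and 1 without the 4 libraries at odds.

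Leaving out 1 replicate number or library at a time, genotype pairs ran from 23 to 35 in SPF and from 35 to 42 in GF mice, and microbial pairs from 5 to 7 in WT and from 1 to 4 in LKO mice, with 1 on leaving out any GF LKO or GF WT library of ZT22 or SPF LKO ZT22 replicate 2. Members called between genotypes ran from 7 to 9 in SPF and from 7 to 8 in GF mice, and between microbial states from 3 to 5 in both genotypes. Rhythms ran from 0 to 2 in SPF WT, 0 to 0 in SPF LKO, 2 to 2 in GF WT and 0 to 3 in GF LKO mice, rhythm differences from 0 to 1 in GF and 0 to 0 in SPF mice, and the interaction from 0 to 0.

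The sign reversed for Gstp1 between genotypes in GF mice without replicate 2 (0.0278, range -0.19 to 0.0278), for Gsta3 between microbial states in LKO mice (0.0798) and Gsta2 in the interaction (0.0606) without the 4 libraries at odds, and for Gstp1 in the interaction without replicate 1 (range -0.11 to 0.13). None of these had passed the test, and the cause was not tested.

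Replicate numbers did not pair the mice. Over 72 pairs of same-numbered libraries the median correlation of deviations was -0.001, with 15 over 0.1 and 12 under -0.1. With the replicate block 9, 8, 5 and 4 members were called in the SPF, GF, WT and LKO comparisons and 1 in the interaction. The block added Gstm4 between genotypes in GF mice (0.29, adjusted p = 0.00401, edgeR) and lost Gstm3 between microbial states in LKO mice (-0.46, adjusted p = 0.120, edgeR). The few reads of Gsta1 and its shared sequence limit what can be said of it at this depth.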
